A study of Mus musculus with 4 samples.

Results

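Chemokines are small secreted proteins that guide migrating cells, and they act through G protein-coupled receptors on those cells. The genes described here are the protein-coding mouse genes whose symbol begins with Ccl, Cxcl, Xcl, Cx3cl, Ccr, Cxcr, Xcr, Cx3cr or Ackr followed by a number and at most letters after it. This rule took 59 of the 50600 genes in the tables, 37 of them ligands and 22 receptors, and it used no measured value. RNA-seq read pairs were counted in 4 libraries of T helper 17 (Th17) primary cells of mouse strain C57BL/6NJ, a class of CD4 T cell that makes IL-17 cytokines. Per the labels the cells were differentiated from CD4 T cells, the libraries are biological replicates 1 to 4 of 1 group with a single donor entry, sex was not collected and age is unknown. The header of each table names a 24 hour sample, a time the labels do not give. No other cell type, time or treatment was included, so each value describes this 1 group.

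CC and CXC chemokines are named for the spacing of their first cysteines, and each usually binds a receptor of the same class. Binding activates the Gi class of G protein, whose released beta and gamma subunits drive phosphoinositide 3-kinase, calcium release and the small GTPases that turn the cell, while receptor kinases and arrestins end the signal. In Th17 cells the family is best known for CCR6, the receptor for CCL20, which takes these cells to mucosal and inflamed tissue. The atypical receptors bind chemokines without G protein signalling and remove them.

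Total counts ran from 19332509 in replicate 2 to 48558772 in replicate 4, and levels are given as TPM, which divides counts by gene length and scales every library to the same sum. The 4 T cell markers that could be tested (Cd3e, Cd3d, Cd3g and Cd4) and 5 of 5 Th17 markers, Ccr6 among them, were above 1 TPM. Of the macrophage and dendritic cell markers 0 of 7 were above 1 TPM and 6 were below it, with a summed level from 0.550 to 1.32 TPM in the libraries, and Lyz2, Csf1r and C1qa had no count. Of the neutrophil, B cell and stromal, endothelial and epithelial markers, 0 of 4, 0 of 4 and 0 of 6 were above 1 TPM, with summed levels of at most 0.0227, 0.991 and 0.567 TPM in any library. Of 5 CD8 T and NK cell markers, Cd8b1 was above 1 TPM at 14.4 TPM on average and Cd8a was below it at 0.101 TPM. Replicates 1 and 2 had 77.8 and 58.9 TPM of the Y-linked gene Ddx3y, and replicates 3 and 4 had 0.240 and 0.0925 TPM, so the libraries fall apart into pairs in that gene.

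Each gene was tested against a level of 1 TPM with edgeR's quasi-likelihood test, two-sided, with Benjamini-Hochberg adjustment over all 21764 protein-coding genes. Of the 59 family genes, 11 were above 1 TPM (18.6%), against 45.9% of all protein-coding genes. A further 41 were below it (69.5%), against 51.4% of all protein-coding genes, and 7 were on neither side. The median level was 0.0365 TPM over the family and 0.411 TPM over all protein-coding genes. Of the receptors 8 of 22 were above and 13 below, with a median of 0.176 TPM, and of the ligands 3 of 37 were above and 28 below, with a median of 0.00866 TPM. With DESeq2, 11 family genes were again above, against 70.8% of the protein-coding genes it gives a p, and 16 of the 36 with a count were below, against 23.9%. Among genes with 10 or more counts on average, 11 of 20 family genes were above, against 89.3% of all such genes, and 3 of 20 below, against 6.76%. For genes with counts, these p-values measure only the spread between 4 libraries and rest on a dispersion shared with genes of like abundance. The 23 family genes with no count have no spread. Their p-values reflect the count that 1 TPM would give at their length and the depth of the libraries. The labels do not tie the libraries to separate animals: with the split in Ddx3y they are not all repeats from 1 animal, but the spread within each pair of libraries may be technical. In bulk RNA, few cells that express a gene and little RNA per cell cannot be told apart.

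**Figure D1:**
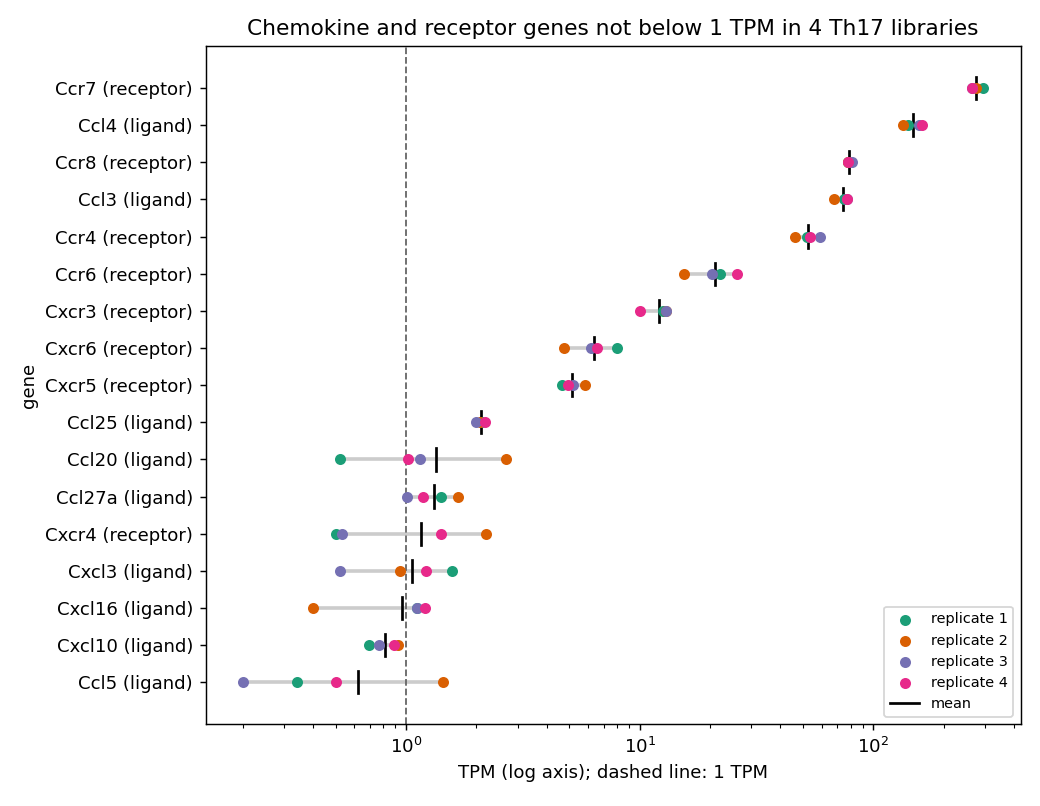
Level of 17 of the 18 family genes that were not below 1 TPM, in TPM on a log axis, with 1 point per library (n = 4) and a black tick at the mean; the dashed line marks 1 TPM. Ccr7 lies highest at 264 to 296 TPM, the genes down to Ccl25 lie wholly to the right of the line, and the points of Ccl20, Cxcr4 and Ccl5 are the most widely spread among the lower genes.

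Ccr7 had the highest level of the family, and Ccr8, Ccr4 and Ccr6 followed it among the receptors, with the ligands Ccl4 and Ccl3 between them. Ccr7, the receptor for CCL19 and CCL21 that brings T cells into lymph nodes, lies at chr11:99144196-99155077 (mm10) and had 296, 274, 264 and 265 TPM in replicates 1 to 4 (274.9 ± 14.5 TPM, SD, n = 4), from 23349 counts. Its SD was 5.29% of its mean, with replicate 1 above the other libraries, and it alone held 60.4 ± 1.92% of the summed receptor TPM. Ccr8, the receptor for CCL1, lies at chr9:120092114-120094906 and had 78.0, 77.8, 80.8 and 77.8 TPM (78.6 ± 1.47 TPM), the smallest relative spread of the 11 genes above 1 TPM. Ccr4, the receptor for CCL17 and CCL22 on skin-homing and type 2 helper cells, lies at chr9:114490316-114504916 and had 52.0, 46.0, 58.8 and 53.7 TPM (52.7 ± 5.28 TPM). Its lowest value came from replicate 2 and its highest from replicate 3.

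Ccr6 came next among the receptors, at chr17:8236043-8257127. It had 22.1, 15.5, 20.4 and 26.1 TPM (21.01 ± 4.39 TPM, 1928 counts), lowest in replicate 2 and highest in replicate 4. The exact 95% Poisson intervals of those libraries, which cover counting error only, ran from 13.3 to 17.9 TPM and from 24.3 to 28.02 TPM and did not overlap. Within each library, Ccr7 exceeded Ccr6 by 3.67 ± 0.31 on the log2(TPM + 1) scale, Ccr8 by 1.88 ± 0.30 and Ccr4 by 1.30 ± 0.24, in 4 of 4 libraries each. For each, the two-sided p of an exact permutation of signs was 0.125 (0.14 adjusted over the 19 pairs examined), the smallest that 4 libraries allow, so no difference between genes here could pass 0.05. Together the 4 leading receptors made up 93.9 ± 0.295% of the receptor sum.

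Among the CXC receptors, 3 of 6 were above 1 TPM. Cxcr3, the receptor for CXCL9 and CXCL10 and a mark of type 1 helper cells, had 12.6, 12.98, 12.9 and 10.04 TPM (12.1 ± 1.41 TPM), and replicate 4 lay below the other 3. Cxcr6, the receptor for CXCL16, had 7.99, 4.74, 6.17 and 6.54 TPM (6.36 ± 1.34 TPM), lowest in replicate 2. Cxcr5, which takes cells into B cell follicles along CXCL13, had 4.63, 5.81, 5.19 and 4.93 TPM (5.14 ± 0.501 TPM), highest in replicate 2. The ranges of Cxcr6 and Cxcr5 overlapped, and Cxcr6 was the higher in 3 of 4 libraries. Cxcr4, the receptor for CXCL12, was on neither side of 1 TPM, at 0.499, 2.20, 0.532 and 1.41 TPM from 81 counts (adjusted p = 0.643, edgeR). Replicates 2 and 4 were above 1 TPM for this gene and replicates 1 and 3 below it. Cxcr4 was lower than Cxcr3 in 4 of 4 libraries, by a log2(TPM + 1) difference of -2.67 ± 0.59 (exact permutation p = 0.125). Cxcr1 and Cxcr2, the neutrophil receptors, were both below 1 TPM, with 3 counts each over all 4 libraries.

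Of the 10 CC receptors, 5 were above 1 TPM and 5 below. Ccr3, Ccr2, Ccr1 and Ccr9 were below 1 TPM at 0.363, 0.174, 0.0145 and 0.00234 TPM, and Ccr10 had no count. Xcr1 and Cx3cr1, the receptors for XCL1 and CX3CL1, were below at 0.178 and 0.0365 TPM. All 4 atypical receptors (Ackr1 to Ackr4) had no count in any library, and 3 counts over the 4 libraries would equal 0.0130 to 0.0497 TPM for them. Cadm3 overlaps 25.7% of the Ackr1 exon bases on the same strand, so the lack of counts is less certain for Ackr1 than for the others.

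Ligand RNA came almost wholly from Ccl3 and Ccl4, the macrophage inflammatory proteins 1 alpha and 1 beta, which attract T cells and monocytes. Ccl4 had 140, 134, 157 and 161 TPM (148 ± 13.3 TPM) and Ccl3 had 74.9, 67.9, 77.4 and 77.5 TPM (74.4 ± 4.51 TPM), both lowest in replicate 2. Together they made up 95.8 ± 0.961% of the ligand sum. Ccl4 exceeded Ccl3 by 0.98 ± 0.07 on the log2(TPM + 1) scale in 4 of 4 libraries (exact sign-flip permutation p = 0.125). The genes lie 13.2 kb apart on opposite strands, Ccl3 at chr11:83647844-83649355 and Ccl4 at chr11:83662584-83664683. The third ligand above 1 TPM was Ccl25, known from thymus and small intestine as the ligand of CCR9, at 2.12, 2.07, 2.00 and 2.18 TPM (2.09 ± 0.0749 TPM).

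Levels of 6 further ligands were on neither side of 1 TPM. Ccl20, the ligand of CCR6, had 0.520, 2.68, 1.15 and 1.02 TPM from 9, 22, 17 and 21 counts (adjusted p = 0.309, edgeR). Replicate 2 was the highest and replicate 1 the lowest, with 95% Poisson intervals of 1.68 to 4.05 TPM and 0.238 to 0.987 TPM that did not overlap. Ccl5, an attractant of T cells and monocytes, had 0.342, 1.44, 0.200 and 0.501 TPM from 21 counts in all, again highest in replicate 2. Cxcl3, a neutrophil attractant, had 1.57, 0.939, 0.522 and 1.22 TPM, Cxcl16 had 1.11, 0.4004, 1.11 and 1.20 TPM, and Cxcl10, an interferon-induced ligand of CXCR3, had 0.693, 0.921, 0.768 and 0.884 TPM. Ccl27a, a skin ligand of CCR10, had 1.42, 1.67, 1.01 and 1.18 TPM, a level that is uncertain since 45.0% of its 50-base words occur in other transcripts, Ccl27b among them.

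The remaining 28 ligands were below 1 TPM, 18 of them with no count in any library. The highest were Ccl28 at 0.475 ± 0.238 TPM, a mucosal ligand of CCR10 and CCR3, Xcl1 at 0.236 ± 0.280 TPM and Cxcl5 at 0.218 ± 0.124 TPM. Xcl1, the ligand of XCR1 made by activated T and NK cells, had 0, 0, 0.551 and 0.394 TPM from 6 counts, and its call (adjusted p = 0.0427, edgeR) was lost with DESeq2 (adjusted p = 0.117). Counts of 0 leave limits of 0.00855 TPM (Cxcl12) to 0.248 TPM (Ccl26), the level of 3 counts over the 4 libraries. The zeros of Ccl19, Ccl21a, Ccl21b and Ccl27b are uncertain, since 52.0% to 100% of their 50-base words occur in other transcripts and multi-mapping reads were not counted. Relatives outside the symbol rule were as low: Ccrl2 stood at 0.0404 TPM, and Ccr1l1, Pf4 and Ppbp had no count.

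The sequences before the start sites of Ccl3, Ccl20, Cxcl3 and Ccr6 are shown because they hold a leading ligand, the pair CCL20 and CCR6, and a ligand near 1 TPM. Each run is the 250 bases before the RefSeq start (GRCm38.p6), on the gene's own strand, 5′ to 3′, with positions counted back from the start at -1. Capitals mark matches, on either strand, to TATAAA (the TATA box), AGGTCA (a core that many nuclear receptors bind), GGAAAA (the core of NFAT sites) or the NF-kappaB site; TGANTCA (the AP-1 site) was searched too and has no match in these 4.
Ccl3 (chr11:83649379-83649628, minus strand): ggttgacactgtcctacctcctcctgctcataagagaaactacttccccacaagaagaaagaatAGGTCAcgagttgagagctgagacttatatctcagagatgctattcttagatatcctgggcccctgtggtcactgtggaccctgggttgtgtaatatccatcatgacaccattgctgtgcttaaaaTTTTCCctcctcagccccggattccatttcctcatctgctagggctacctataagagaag
Ccl20 (chr1:83116516-83116765, plus strand): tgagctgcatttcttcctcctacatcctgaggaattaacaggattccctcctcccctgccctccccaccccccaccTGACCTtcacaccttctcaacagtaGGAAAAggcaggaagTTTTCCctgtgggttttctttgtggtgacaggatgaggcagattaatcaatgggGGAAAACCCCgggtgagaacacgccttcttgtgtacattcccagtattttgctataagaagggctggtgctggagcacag
Cxcl3 (chr5:90785851-90786100, plus strand): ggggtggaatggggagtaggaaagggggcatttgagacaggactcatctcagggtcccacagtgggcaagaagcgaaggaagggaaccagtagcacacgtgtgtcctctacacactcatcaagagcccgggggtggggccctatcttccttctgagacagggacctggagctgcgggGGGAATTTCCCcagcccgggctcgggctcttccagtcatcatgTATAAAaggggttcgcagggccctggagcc
Ccr6 (chr17:8235793-8236042, plus strand): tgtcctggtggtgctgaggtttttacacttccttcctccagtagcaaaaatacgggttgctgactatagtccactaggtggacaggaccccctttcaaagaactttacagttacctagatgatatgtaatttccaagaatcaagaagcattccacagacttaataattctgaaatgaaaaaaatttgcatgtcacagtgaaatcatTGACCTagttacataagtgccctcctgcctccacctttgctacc
Ccl3 holds AGGTCA at -186 and, on the other strand, GGAAAA at -60. Ccl20 holds AGGTCA on the other strand at -174, and GGAAAA at -149 and -80 and on the other strand at -134. It also holds an NF-kappaB match on the other strand at -80, which overlaps the GGAAAA at -80. Cxcl3 holds TATAAA at -30 and overlapping NF-kappaB matches at -73 and, on the other strand, at -72. Ccr6 holds AGGTCA on the other strand at -44. RefSeq promoters, from 250 bases before to 50 bases after the start, were matched for 45 of the 59 genes (52 starts). The NF-kappaB site occurred in 10 of these 52 (19.2%) and in 4.51% of all 32851 promoters, TATAAA in 14 (26.9% against 13.6%), AGGTCA in 15 (28.8% against 16.3%), TGANTCA in 9 (17.3% against 7.81%) and GGAAAA in 11 (21.2% against 23.4%). Windows of the same gene can overlap, as for Ccl27b, where the same AGGTCA lies in more than 1 window, so a match can count more than once. A match describes letters in a window and not a bound site. Ccr6 has a second RefSeq start inside the gene (window chr17:8242276-8242575, not printed), which holds overlapping NF-kappaB matches at -81 and -80.

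Set side by side in the same libraries, the receptor was higher than its ligand in most of the pairs examined. These pairs were chosen with earlier results known and do not cover every ligand and receptor. Pairs left out went both ways: on average Ccl25 (2.09 TPM) was higher than Ccr9 (0.00234 TPM), and Cxcl9 (0.0342 TPM) was lower than Cxcr3 (12.1 TPM). Ccl20 was below Ccr6 by a log2(TPM + 1) difference of -3.29 ± 0.79, Ccl22 and Ccl17 were below Ccr4 by -5.63 ± 0.14 and -5.54 ± 0.36, and Ccl1 was below Ccr8 by -6.30 ± 0.04. Cxcl10 was below Cxcr3 by -2.85 ± 0.21, and Cxcl16 below Cxcr6 by -1.92 ± 0.17. For the ligands with no count, Ccl19 against Ccr7 (-8.11 ± 0.07), Cxcl13 against Cxcr5 (-2.61 ± 0.12) and Cxcl12 against Cxcr4 (-1.04 ± 0.53), the difference is set by the receptor alone, and the zero of Ccl19 is uncertain. Of 14 pairs of a ligand and its receptor, 12 had the same sign in 4 of 4 libraries, a count taken whether ligand or receptor was the higher. All 5 pairs within ligands or within receptors also kept 1 sign. Each of these pairs had an exact permutation p of 0.125 (0.14 adjusted over all 19). Xcl1 and Xcr1 differed by 0.04 ± 0.31 (p = 0.875) and Cx3cl1 and Cx3cr1 by -0.04 ± 0.06 (p = 0.5) in the same exact permutation test, and all 4 of these genes were below 1 TPM.

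**Figure D2:**
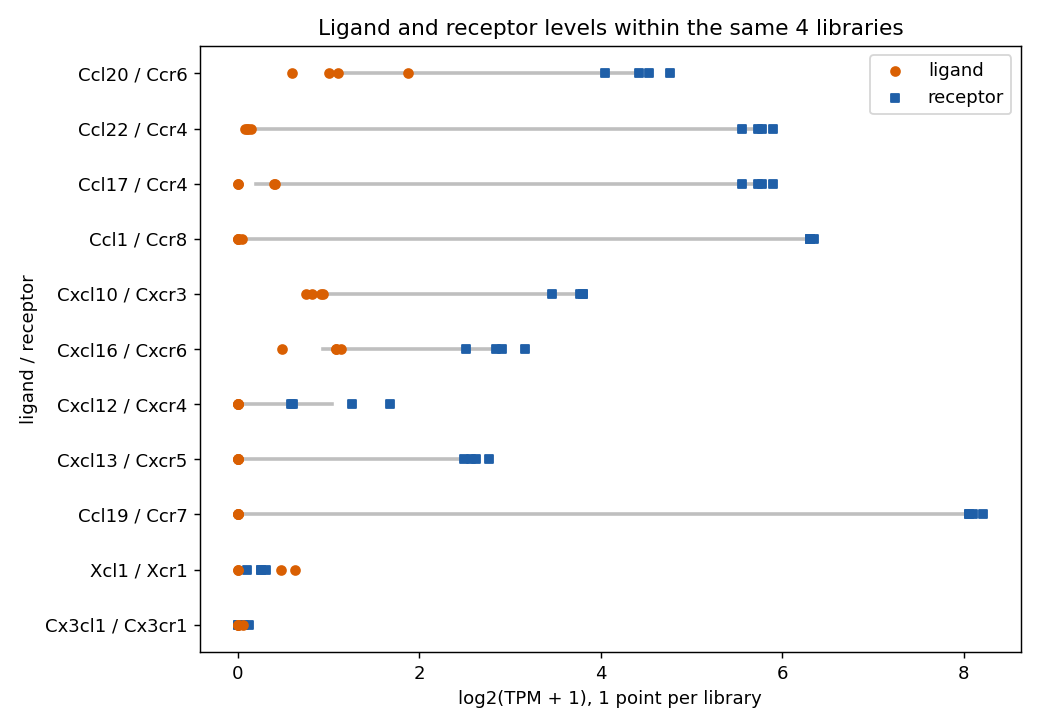
Ligand (circles) and receptor (squares) levels as log2(TPM + 1), 1 point per library (n = 4), for 11 ligand and receptor pairs, with a grey line joining the means. The receptor lies to the right in most pairs, the Xcl1 and Xcr1 points are mixed, and the Cx3cl1 and Cx3cr1 points coincide near 0.

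The receptor sum was 455 ± 14.9 TPM and the ligand sum 232 ± 16.2 TPM. Their ratio was 2.13, 2.07, 1.86 and 1.81 in replicates 1 to 4 (1.97 ± 0.154), with the receptors the higher in every library. Replicates 1 and 2, the libraries with Ddx3y, had the higher ratios. They also had the higher Ccr7 and the lower Ccl4, the leading receptor and ligand, which weigh on that ratio. Neither gene passed a test of variation beyond genes of like abundance (edgeR dispersion, one-sided chi-square, unadjusted p = 0.523 and 0.188). The part of what sets these pairs of libraries apart was not tested. Going down the order of levels from Ccr7 to Ccr4, neighbouring genes did not overlap over the libraries, but Ccr8 exceeded Ccl3 by only 0.08 ± 0.08 on the log2(TPM + 1) scale, no more than its spread. Ccr4, Ccr6, Cxcr3 and Cxcr6 followed in that order without overlap. Cxcr6 and Cxcr5 overlapped, as did every neighbouring pair from Ccl25 down to Ccl5.

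Of the 59 genes, 39 lie in 10 clusters, taken as genes within 1000 kb of each other, and some clusters held genes above 1 TPM beside genes with few or no counts. On chromosome 11, Ccl2, Ccl7, Ccl11, Ccl12, Ccl8 and Ccl1 (chr11:82035571-82305690) were all below 1 TPM and together gave 1 count, in Ccl1. The next cluster (chr11:83525778-83664683) holds Ccl5, Ccl9, Ccl6, Ccl3 and Ccl4, where 2 were above, Ccl5 was on neither side, and Ccl9 and Ccl6 were below at 0.0978 and 0 TPM. On chromosome 9, of the neighbouring receptor genes Ccr9, Cxcr6, Xcr1, Ccr1, Ccr3 and Ccr2, Cxcr6 was above 1 TPM and the other 5 were below. Of the 5 CXC ligands at chr5:90759360-90905938, 4 were below 1 TPM, 2 of these (Cxcl15 and Cxcl1) with no count, and Cxcl3 was on neither side.

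Spread between libraries could be tested for the 20 family genes that averaged 10 counts or more, against edgeR's dispersion trend. None of the 20 passed after adjustment over all genes tested, against 0.272% of those 12849 genes; 4 had an unadjusted p under 0.05, against 507 of all 12849. These 4 were Ccr6 (p = 0.00237, adjusted 0.324), Cxcr4 (p = 0.00975, adjusted 0.716), Ccl20 (p = 0.0322, adjusted 1.00) and Cxcl3 (p = 0.0365, adjusted 1.00), from the edgeR dispersion and a one-sided chi-square test. With a common dispersion in place of the trend the same 4 passed, against 2.73% of all genes tested, with adjusted p of 0.0229 (Ccr6), 0.00249 (Cxcr4), 0.0181 (Ccl20) and 0.0217 (Cxcl3). The coefficient of variation ran from 1.87% (Ccr8) to 20.99% (Cxcr6) over the 11 genes above 1 TPM, with a median of 9.75%; protein-coding genes had a median of 4.39% at 10 to 300 TPM and 11.7% at 1 to 10 TPM. It ran from 12.9% (Cxcl10) to 90.2% (Ccl5) over the 7 genes on neither side.

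**Figure D3:**
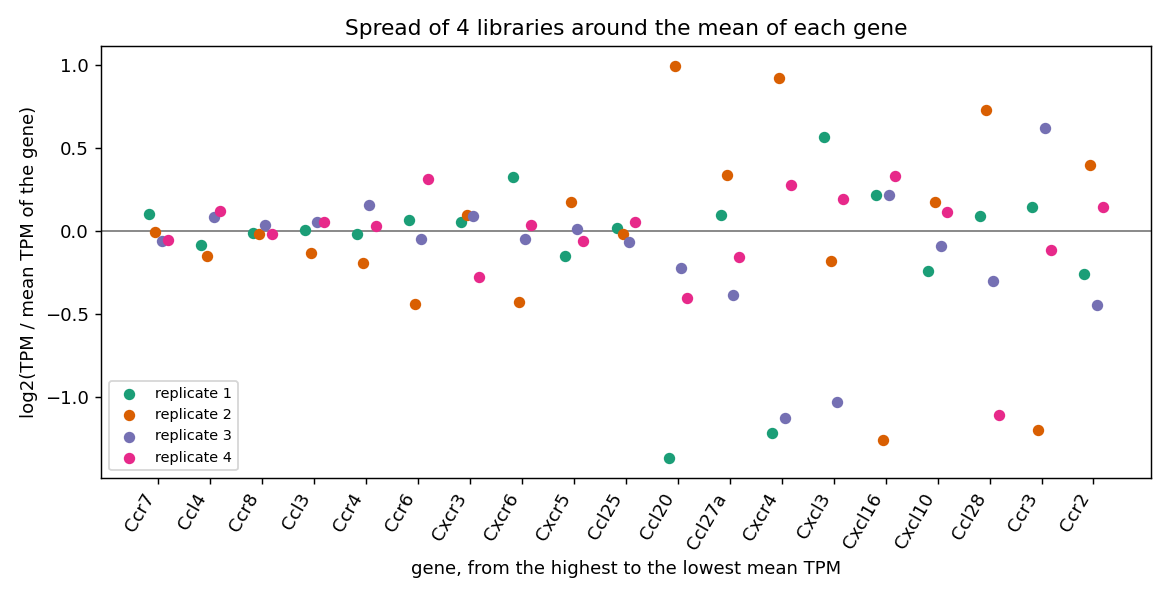
The log2 ratio of each library's TPM to the gene's mean TPM, for 19 of the 20 family genes that averaged 10 counts or more, ordered from the highest to the lowest mean, with 1 point per library. Points lie close to 0 for Ccr7, Ccr8 and Ccl25 and spread most for Ccl20 and Cxcr4.

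Replicate 2, the library with the fewest counts, was at an end of the range for several family genes. How often this held over all genes was not examined, so the counts that follow cannot be read as particular to the family. Of the 20 genes, 8 were highest in replicate 2, Ccl20, Cxcr4 and Ccl28 among them, and 7 were lowest, namely Ccr6, Cxcr6, Ccr4, Ccr3, Ccl3, Ccl4 and Cxcl16. It was also lowest for Il17f, at 391 TPM against 501 to 557 TPM in the other 3 libraries, and for Il23r, a receptor subunit that sustains Th17 cells, at 10.5 TPM against 14.9 to 16.7 TPM. In the same one-sided chi-square test of variation, Il17f passed (adjusted p = 0.0313) and Il23r did not (adjusted p = 0.844). The part of the depth of replicate 2, or of these Th17 genes, in the family's values was not tested.

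Genes through which chemokine receptors signal were taken from a list that was chosen with earlier results of these data known. The counts below, in total and by role, are of listed genes and do not describe the whole pathway. Of a list of 42, 37 were above 1 TPM (88.1%), against the 45.9% of all protein-coding genes given above, and 5 were below. Among Gi alpha subunits, Gnai3 and Gnai2 had 262 ± 6.42 and 225 ± 7.31 TPM, while Gnao1 had 3 counts in all and Gnai1 none. All 7 listed beta and gamma subunits were above, led by Gnb1 (318 TPM), Gnb2 (164 TPM) and Gng5 (27.98 TPM), with Gnb4 the lowest at 2.48 TPM. Of the kinases and arrestins that shut receptors off, 5 of 6 were above, led by Grk2 (261 TPM), Grk6 (222 TPM) and Arrb2 (97.2 TPM), and Grk3 had 1 count. The RGS proteins, which speed the return of G alpha to its resting form, had 7 of 8 above, with Rgs16 at 344 ± 19.0 TPM, Rgs1 at 176 TPM and Rgs19 at 117 TPM, and Rgs18 had no count.

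Downstream, 4 of the 5 listed phospholipase and PI3K gamma genes were above 1 TPM. Pik3r5, the p101 adaptor of PI3K gamma, had 15.6 ± 1.29 TPM, Plcb2 had 12.4 TPM and the catalytic subunit Pik3cg 7.68 TPM, while the other adaptor, Pik3r6, was below at 0.611 ± 0.144 TPM. All 10 listed genes of Rac and Rap activation, which move the cell edge and switch on integrins, were above. The highest were Rap1b at 905 ± 39.3 TPM, Cdc42 at 618 TPM and Rac2, the blood cell form of Rac, at 522 TPM, and the lowest was Rasgrp2 at 1.21 TPM. Both tyrosylprotein sulfotransferases, which sulfate receptor tails that chemokines bind, were above, Tpst2 at 54.0 TPM and Tpst1 at 36.9 TPM. The level of Gng10 is uncertain, since 71.5% of its 50-base words occur in other transcripts. Rac1 shares 50.3% of its words with Daglb. That gene overlaps 51.4% of the Rac1 exon bases on the opposite strand, and pairs were counted by strand.

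**Figure D4:**
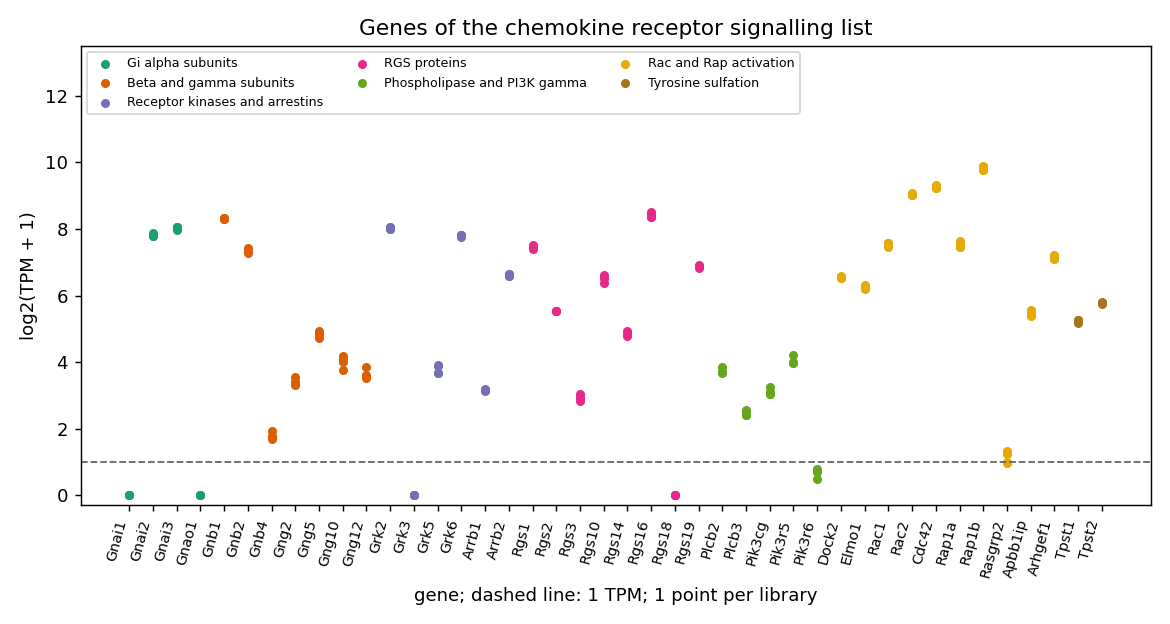
Level of the 42 genes of the signalling list as log2(TPM + 1), coloured by role, with 1 point per library (n = 4) and a dashed line at 1 TPM. The 5 genes called below 1 TPM, Gnai1, Gnao1, Grk3, Rgs18 and Pik3r6, have their points under the line, and of the other 37 only Rasgrp2 has a library under it.

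TPM depends on the length given to a gene, here the merged length of all its exons. With the median length of its protein-coding transcripts (GENCODE M21), the median of 10194 genes moved by -0.33 on the log2 scale, and 13 family genes were above 1 TPM and 43 below, against 45.2% and 52.9% of all protein-coding genes. Cxcl3 and Ccl27a were then above 1 TPM, and Cxcr4 and Cxcl16 below it. Ccl25, with 7445 bases of merged exons against 845 bases in its median transcript, stood at 8.36 TPM in place of 2.09 TPM, above Cxcr3 at 5.51 TPM. Ccr4 came to 53.5 TPM, above Ccr8 at 35.7 TPM and Ccl3 at 33.8 TPM, while Ccr7 and Ccl4 kept the first 2 places at 125 and 67.2 TPM. Ccr6 stood at 14.96 TPM, and the receptor and ligand sums at 243 and 117 TPM. The share of Ccr7 in the receptor sum, and that of Ccl3 and Ccl4 in the ligand sum, were thus lower than with merged lengths. The signalling list again had 37 genes above 1 TPM and 5 below, but its levels and order moved too: Gnai2 stood at 621 TPM and Gnai3 at 119 TPM, Grk2 at 851 TPM, Cdc42 at 468 TPM and Rap1b at 435 TPM, and Rasgrp2 at 11.9 TPM.

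**Figure D5:**
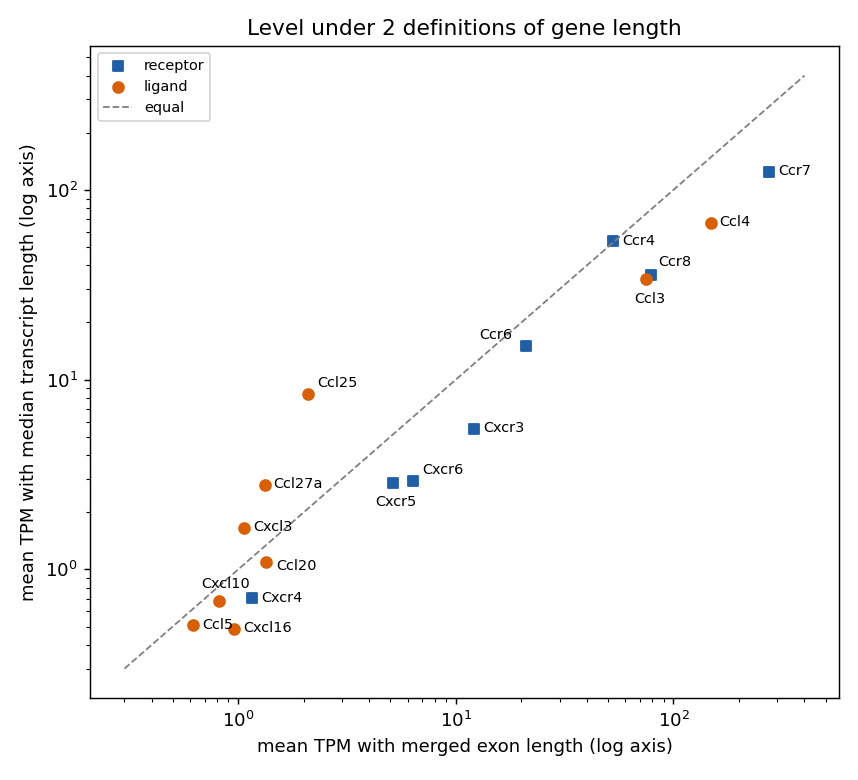
Mean TPM over 4 libraries with the merged exon length (x axis) against mean TPM with the median transcript length (y axis), both on log axes, for 17 of the 18 family genes not below 1 TPM. Ccl25, Ccl27a and Cxcl3 lie above the line of equal values, Ccr4 lies close to it, and Ccr7, Ccl4, Ccr8 and Ccl3 lie below it.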

How the data were processed

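RNA-seq libraries of 1 group of Th17 cells, 4 in all, were used. The assay is total RNA-seq in the labels, which also link a protocol named for poly(A) selection. Values deposited by the authors are raw counts of read pairs per gene, beside merged exon lengths. Per the file headers, featureCounts (1.4.6-p4) counted pairs against GENCODE M13 (mm10), on the reverse strand and only where both mates were mapped. Multi-mapping reads were not counted, so genes with near-identical copies lose the reads they share. The sources used here do not give the aligner.

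Symbols came from GENCODE M21 by identifier (50376 of 50600 matched), and TPM was computed from the deposited counts and lengths. Levels were tested against 1 TPM with edgeR 4.0.16 (quasi-likelihood, intercept with an offset, trended dispersion) and variation by each gene's negative binomial deviance at that trend, one-sided, with TMM scaling, both at an adjusted p of 0.05 after checks on simulated data. Differences within libraries used log2(TPM + 1), a pseudocount of 1 TPM, and an exact sign-flip permutation test. The limit of a 0 is 3 counts, and intervals are exact Poisson at 95%; both cover counting error only. A level is called uncertain where other transcripts hold at least 25% of a gene's 50-base words, on either strand. Rac1 also reached that share, through a gene on the opposite strand, and is not called uncertain. No 2 libraries agreed within sampling noise (chi-square per degree of freedom 4.57 to 12.3). The value was 4.57 for replicates 1 and 2 and 6.21 for replicates 3 and 4. Between these pairs it was 7.32 to 12.3. Depth, which differed between the libraries, also weighs on this measure.

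The family, the lists and the tests were chosen with earlier results of these data known. Named are all family genes not below 1 TPM, the pairs, the 5 highest below 1 TPM, and the 3 highest and the lowest signalling genes of each role; further low genes were picked with their values in view. Values of 1 family gene, its 3 pairs and 1 marker are not reported here, and counts include them. Alternatives were DESeq2 1.42.0, levels of 0.5 and 2 TPM, a count filter, other scalings, pseudocounts and dispersions, leaving out each library and, chosen after seeing the data, transcript lengths.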

Additional observations from a re-analysis of the deposited data

Results flagged for a closer look

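Among the 20 family genes that averaged 10 counts or more and the receptor and ligand sums, each library's level was set against the other 3, and 3 genes had a library standing apart by Dixon's criterion at 95%. Ccr8 was highest in replicate 3 at 80.8 TPM, against 77.8 to 78.0 TPM in the other libraries, a narrow range in which all Poisson intervals overlap. Cxcr3 was lowest in replicate 4 at 10.04 TPM, against 12.6 to 12.98 TPM. Cxcl16 was lowest in replicate 2 at 0.4004 TPM, from 7 counts, against 1.11 to 1.20 TPM. Chance gives about 1 such library in 20 groups.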

How the results depend on the processing

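The count of 11 family genes above 1 TPM was the same with DESeq2, the count filter and each library left out (11 to 11), and was 17 against a level of 0.5 TPM. It was 10 against 2 TPM, where Ccl25 was on neither side (edgeR adjusted p = 0.474). With TPM over nuclear protein-coding genes it was 12, with Ccl27a above 1 TPM (edgeR adjusted p = 0.0372). The count of 41 below was 39 to 40 without 1 library, 16 with DESeq2, which gives no p to the 23 genes with no count, and 3 once low counts were filtered. Signalling genes below were 5 without any 1 library, 3 with DESeq2 and 1 with that filter, and those above were 36 to 37. The count of varying genes, 0, was 0 without any 1 library and 4 with a common dispersion. Pairs with the same sign in all libraries numbered 17. That count could not fall when a library was left out, so leaving out libraries does not test it. Genes near the level changed side: against 2 TPM, Ccl20 (edgeR adjusted p = 0.0271), Ccl27a (0.00515), Cxcr4 (0.00274), Cxcl3 (7.24e-06) and Cxcl16 (6.74e-06) were below, Cxcl10 was above 0.5 TPM (0.0143), and with transcript lengths Cxcr4 (0.0406) and Cxcl16 (1.14e-05) were below 1 TPM. The call of Xcl1 was lost without replicate 1, 2 or 4 (edgeR adjusted p = 0.153, 0.125 and 0.0540) and that of Ccl17 without replicate 3 or 4 (0.0703 and 0.0601) and with DESeq2 (0.101). The difference of Xcl1 and Xcr1 turned to -0.18 with a pseudocount of 0.1 TPM, -0.25 on log2(CPM + 1) and -0.0135 without replicate 4, and ran from -0.0674 (without replicate 3) to 0.162 (without replicate 1) as each library was left out. That of Cx3cl1 and Cx3cr1 turned to 0.0247 with transcript lengths. The cause was not tested. No paired analysis was possible because there was 1 group. Depth limits the lowest genes: 12 family genes had under 10 counts in all 4 libraries together, besides those with none.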
